A study of Homo sapiens with 24 samples.

Results

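Fatty acid and triglyceride metabolism was examined through 44 genes in HepG2 cells, an established human liver cancer cell line. The genes were chosen by symbol, as enzymes and coat proteins of fatty acid synthesis, elongation and desaturation, activation, triglyceride assembly, lipid droplets, lipolysis, binding and uptake, and mitochondrial β-oxidation. All 44 were found among the 26475 gene symbols of the files. RNA was sequenced in 24 libraries, in 8 groups of 3: DMSO (the solvent control), ABBV-075 at 50 nM, ABBV-744 at 50 nM, ABBV-744 at 500 nM, interferon gamma (IFNγ), and IFNγ combined with each of these inhibitor treatments. All groups share this single tumor line. The dose of IFNγ and the treatment times of the IFNγ and ABBV-744 groups were not given in the sources used here. For the study's transcriptome samples its methods give a shorter treatment for ABBV-075 than the time stated in the clause that holds DMSO, so treatment and time cannot be told apart in any comparison of ABBV-075 with DMSO. Those methods call the DMSO and ABBV-075 samples independent and experimental triplicates. For the other groups no source used here says that replicates came from separate cultures, and p-values measure the spread between these libraries, which may be technical.

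ABBV-075 is a pan-BET inhibitor, which binds both bromodomains of the BET proteins, readers of acetylated histones that promote transcription. ABBV-744 is a BET inhibitor selective for the second bromodomain. In liver cells, ACLY, ACACA and FASN build fatty acids from citrate, ELOVL enzymes lengthen them, and SCD and FADS enzymes desaturate them. Acyl-CoA synthetases of the ACSL family activate fatty acids. GPAM, AGPAT and DGAT enzymes attach them to a glycerol backbone in turn, which gives triglyceride, and lipins act before the DGAT step. Triglyceride is stored in droplets coated by perilipins (PLIN) and CIDE proteins and is released by lipases such as PNPLA2, and its fatty acids enter mitochondria through CPT1A and CPT2 for β-oxidation.

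The RefSeq promoters of 7 members are shown because these genes were past the study's thresholds with ABBV-075, GPAM, ACSL5, AGPAT2, PLIN2 and CIDEB downward and PNPLA2 and PLIN5 upward. GPD1, the other such member, has no entry in the table. Each runs from 250 bases before to 50 bases after the annotated start, 5′ to 3′ on the gene's strand, in build GRCh38.p14. Capitals mark matches, on either strand, to the 8 motifs named after the sequences.
GPAM, chr10:112183716-112184015, minus strand: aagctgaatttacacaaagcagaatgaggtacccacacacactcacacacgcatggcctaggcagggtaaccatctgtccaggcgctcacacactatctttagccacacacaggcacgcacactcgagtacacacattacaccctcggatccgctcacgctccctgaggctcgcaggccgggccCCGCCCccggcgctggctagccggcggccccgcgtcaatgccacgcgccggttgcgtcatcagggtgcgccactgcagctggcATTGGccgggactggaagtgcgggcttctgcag
ACSL5, chr10:112375018-112375317, plus strand: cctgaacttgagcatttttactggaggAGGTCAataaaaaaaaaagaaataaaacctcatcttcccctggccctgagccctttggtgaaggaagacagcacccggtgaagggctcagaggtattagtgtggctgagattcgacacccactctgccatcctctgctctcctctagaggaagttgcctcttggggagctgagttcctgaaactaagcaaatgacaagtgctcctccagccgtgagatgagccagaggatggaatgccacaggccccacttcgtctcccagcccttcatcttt
AGPAT2, chr9:136687408-136687707, minus strand: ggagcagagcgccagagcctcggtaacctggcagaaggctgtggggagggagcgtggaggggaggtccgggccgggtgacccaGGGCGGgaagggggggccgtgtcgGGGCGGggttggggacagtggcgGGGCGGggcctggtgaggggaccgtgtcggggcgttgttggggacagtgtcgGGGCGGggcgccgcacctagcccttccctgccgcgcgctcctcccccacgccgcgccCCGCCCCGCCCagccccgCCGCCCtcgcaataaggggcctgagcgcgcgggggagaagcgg
PLIN2, chr9:19127443-19127742, minus strand: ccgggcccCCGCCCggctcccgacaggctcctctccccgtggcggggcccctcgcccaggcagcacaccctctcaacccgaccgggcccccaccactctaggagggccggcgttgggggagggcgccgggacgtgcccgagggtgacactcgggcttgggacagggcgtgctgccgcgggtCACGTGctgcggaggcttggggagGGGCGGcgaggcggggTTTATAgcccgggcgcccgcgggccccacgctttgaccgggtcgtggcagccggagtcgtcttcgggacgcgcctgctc
CIDEB, chr14:24311386-24311685, minus strand: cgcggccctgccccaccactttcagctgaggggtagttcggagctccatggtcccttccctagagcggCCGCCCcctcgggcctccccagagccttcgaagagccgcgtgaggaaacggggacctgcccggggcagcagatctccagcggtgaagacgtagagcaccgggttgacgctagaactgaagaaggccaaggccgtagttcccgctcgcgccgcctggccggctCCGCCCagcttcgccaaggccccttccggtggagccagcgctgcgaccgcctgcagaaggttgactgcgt
PNPLA2, chr11:818664-818963, plus strand: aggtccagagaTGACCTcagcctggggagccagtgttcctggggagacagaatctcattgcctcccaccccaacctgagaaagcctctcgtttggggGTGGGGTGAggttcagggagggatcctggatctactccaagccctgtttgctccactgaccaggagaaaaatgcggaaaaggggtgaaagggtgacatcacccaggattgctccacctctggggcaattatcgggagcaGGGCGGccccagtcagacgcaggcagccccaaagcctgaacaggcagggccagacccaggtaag
PLIN5, chr19:4535175-4535474, minus strand: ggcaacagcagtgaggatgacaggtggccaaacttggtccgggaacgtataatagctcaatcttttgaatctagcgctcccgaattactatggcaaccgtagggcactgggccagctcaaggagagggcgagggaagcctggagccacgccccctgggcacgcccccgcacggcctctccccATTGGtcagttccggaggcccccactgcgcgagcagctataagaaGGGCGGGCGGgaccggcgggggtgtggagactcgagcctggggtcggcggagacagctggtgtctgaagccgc
The motifs were the E-box CACGTG, the GC box GGGCGG, the CCAAT box CCAAT, the TATA box TATAAA, the nuclear receptor element AGGTCA, the sterol element TCACCCCAC, the AP-1 site TGANTCA and the HNF4 site CAAAGTCCA, and matches of different motifs could overlap. Promoters were found for 38 of the 44 members. Their median GC content was 66.5%, against 58.7% over all 35116 promoters in the table. The GC box was in 65.8% of the member promoters and in 45% of all promoters, the CCAAT box in 34.2% and 34.6%, and the E-box in 5.26% and 7.26%. The nuclear receptor element was in 10.5% and 13.8%, the TATA box in 7.89% and 11.5%, and the AP-1 site in 5.26% and 7.71%. The sterol element was in 1 member promoter, that of PNPLA2 (2.63%), and in 0.43% of all promoters. The HNF4 site was in 0 member promoters and in 0.384% of all. These matches describe the letters in the window only.

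Between 2978982 and 4304103 reads per library were counted on genes, 11.95% to 16.8% of all reads. Levels are given as CPM, the reads of a gene relative to all reads on genes after TMM scaling over the 24 libraries. Before that scaling, the floor of 3 counts stood at 0.697 to 1.01 CPM. A gene was called changed where edgeR's quasi-likelihood test gave an adjusted p (Benjamini-Hochberg, over all genes tested) of no more than 0.05. HEXIM1, a gene used to check BET inhibition, was higher with ABBV-075 (log2 fold change 1.41 ± 0.12) and 500 nM ABBV-744 (0.74 ± 0.11). It was at 0.29 (adjusted p = 0.082) with 50 nM ABBV-744. Against IFNγ alone, it was at 1.51 ± 0.11 with ABBV-075 added and at 0.09 (adjusted p = 0.56) with 50 nM ABBV-744 added. With IFNγ and 500 nM ABBV-744 it was at 71.9, 69.4 and 73.2 CPM, against 47.7, 49.3 and 44.8 with IFNγ. The interferon-induced IRF1, PSMB9 and GBP1 rose with IFNγ by 4.26, 4.49 and 4.89 on the log2 scale. All 7 hepatocyte markers examined were detected in every library. Of 3 leukocyte markers PTPRC and CD3E had 0 counts throughout and LYZ was at 1092 to 1875 CPM. Of 3 fibroblast markers COL1A2 and COL3A1 had 0 counts, and PDGFRB was at 1.15 to 7.33 CPM and was lower with ABBV-075 than in DMSO (-1.96 ± 0.33). Of 3 adipocyte markers ADIPOQ and LEP had 0 counts and PLIN1 was at up to 1.77 CPM, and the endothelial PECAM1 and VWF reached 1.19 and 0.954 CPM. The part of these cell types in the results was not tested.

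Libraries also differed with the GC content of genes. The log2 difference between the genes of lowest and highest GC content, relative to the mean library, ran from -1.07 in ABBV-744 50 nM replicate 2 to 0.73 in ABBV-075 replicate 1. It was 0.22 to 0.71 in the 6 libraries of IFNγ with ABBV-744 and -0.57 to -0.16 with IFNγ alone. ABBV-075 replicate 3 stood apart from replicates 1 and 2, at -0.19 against 0.73 and 0.41, and replicates 1 and 3 had a chi-square per degree of freedom of 16.4 where the other replicate pairs had 1.65 to 8.24. Values after a correction for GC content are given beside many of the results. The part of this trend in the results was not tested beyond that correction.

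Members spanned a wide range of levels in DMSO. Per kilobase of exon, the desaturase SCD was highest at 345 ± 10.2 CPM per kb (SD, n = 3), followed by the citrate lyase ACLY (62.2 ± 3.91), the perilipins PLIN2 (55.8 ± 0.198) and PLIN3 (55.7 ± 4.22), the β-oxidation subunit HADHA (53.01 ± 2.36) and the acyl-CoA synthetase ACSL5 (49.8 ± 2.26). From ACLY to ACSL5 the libraries of each gene overlapped those of PLIN3 or of its neighbour in this order. GPAM was at 19.2 ± 2.72, GPD1 at 17.4 ± 0.597 and the lipase PNPLA2 at 2.63 ± 0.728 CPM per kb, and CD36 and PLIN5 were lower, at 0.267 ± 0.0204 and 0.202 ± 0.0194. The malic enzyme ME1, the lipases LIPE and MGLL and the dehydrogenase ACADL had 0 counts in every library, and THRSP had at most 1. These 5 members were tested in no comparison. The other 39 passed the filter on low counts in at least 1 comparison. A member that passes only through the group in which it is high was selected for a difference, whether or not it was called. PLIN5, AGPAT2, CIDEC and CD36 passed in that way in the comparisons named below, and their differences there are a description.

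With 50 nM ABBV-075, most genes of triglyceride assembly were lower than in DMSO, while the lipase PNPLA2 was higher. In all, 22 of 38 members tested changed (57.9%, against 39.3% of all genes tested), 6 higher (19.8% of all genes) and 16 lower (19.6%). PLIN5 passed the filter only through ABBV-075 and AGPAT2, CIDEC and CD36 only through DMSO, and without these 4 members 19 of 34 changed. Without DMSO replicate 1 or without ABBV-075 replicate 2, 16 changed, 3 higher and 13 lower. Without ABBV-075 replicate 3, the library that stood apart, 26 changed, 6 higher and 20 lower. The median log2 fold change was -0.28 over the members and 0.03 over all genes tested. Past the study's threshold of 1.5 in absolute log2 fold change were 2 higher members (1.09% of all genes were higher past it) and 6 lower ones (3.19%), of which PLIN5 and AGPAT2 passed the filter through 1 group. After the GC correction 5 lower ones were, without CIDEB (-1.49) and PLIN2 (-1.46) and with CD36 (-1.84). By role, 6 of 9 tested members of glycerolipid assembly fell and 0 rose, and in the droplet coat 3 of 5 fell and 1 rose. AGPAT2 is among the members of glycerolipid assembly that fell. In the coat CIDEC is among those that fell and PLIN5 is the 1 that rose. These members passed the filter through 1 group. In elongation and desaturation 3 of 7 fell, and in fatty acid synthesis 1 of 4 rose. After the GC correction 6 members of glycerolipid assembly fell and 1 rose, and in elongation and desaturation 4 fell and 1 rose.

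ABBV-744 was compared with the same DMSO libraries. At 50 nM, 11 of 37 members tested changed (29.7%, against 18.9% of all genes tested), 3 higher (8.81% of all genes) and 8 lower (10.1%), and the median was -0.17 over the members and 0.00 over all genes tested. Without DMSO replicate 2 the members that were higher numbered 1 and the genes called 708, against 2102 with all libraries, and without ABBV-744 50 nM replicate 1 6 members were higher. At 500 nM, 13 of 37 members tested changed (35.1%, against 15.3% of all genes tested), 3 higher (7.48% of all genes) and 10 lower (7.8%), and the median was -0.12 over the members and 0.00 over all genes tested. GPAM was past the threshold of 1.5 at 50 nM, where 0.189% of all genes were lower past it, but 0 members were after the GC correction. GPAM and CD36 were past it at 500 nM (0.315%). CD36 passed the filter there only through DMSO, and without it 12 of 36 members tested changed. Between the doses, 0 of 36 members differed in edgeR (0.0274% of all genes), 4 had an unadjusted p under 0.05, and DESeq2 called 0. The 95% interval of a member's difference between doses had a median width of 0.30 to either side (log2), so differences within it remain possible. With IFNγ alone, 3 of 38 members tested changed (7.89%, against 3.46% of all genes tested), 2 higher (2.76% of all genes) and 1 lower (0.695%): FASN and PLIN2 rose and CD36, which passed the filter only through DMSO, fell. Without CD36 2 of 37 members tested changed.

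**Figure D1:**
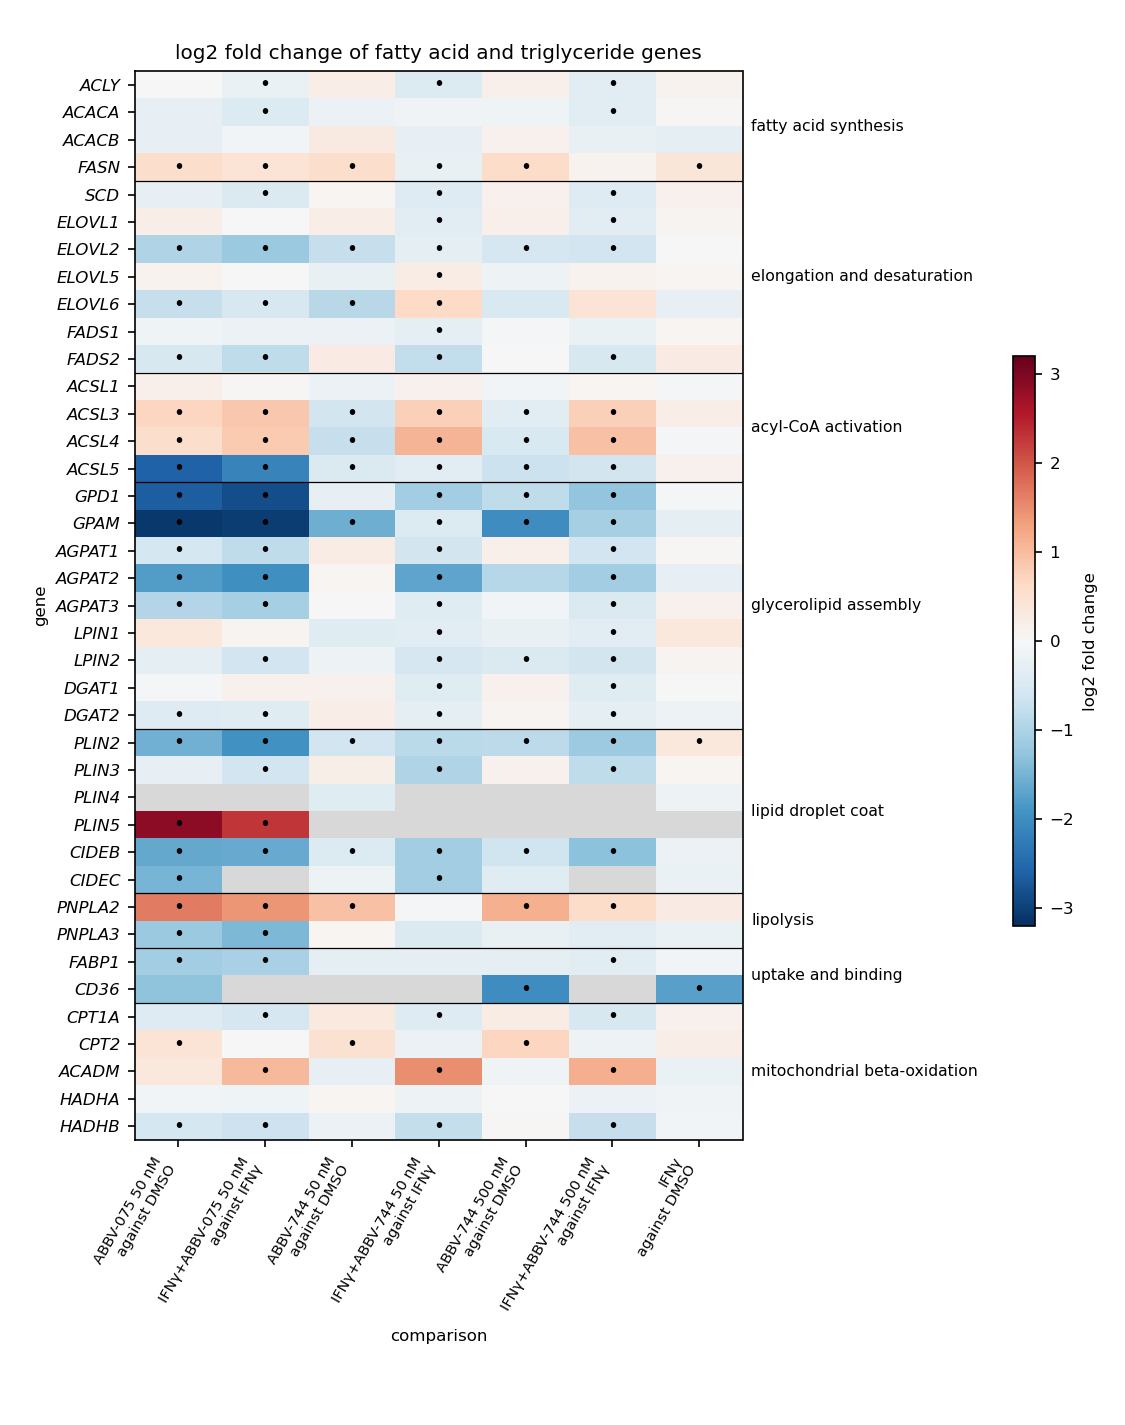
Log2 fold change (colour, red higher and blue lower than the control) of the 39 members tested in at least 1 comparison, in rows by role, over 7 comparisons with a control in columns. Black points mark an adjusted p of no more than 0.05 in edgeR and grey cells were not tested. The strongest blue is GPAM with ABBV-075 (-3.09) and the strongest red is PLIN5 with ABBV-075 (2.86).

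GPAM, the mitochondrial acyltransferase that attaches the first fatty acid to glycerol 3-phosphate, fell with both inhibitors. It was at 159.5, 212 and 193 CPM in DMSO and 30.2, 21.5 and 15.04 with ABBV-075. With ABBV-744 it was at 76.04, 50.3 and 62.2 CPM at 50 nM and 55.2, 37.5 and 48.9 at 500 nM. Every inhibitor library was below every DMSO library. The log2 fold changes were -3.09 ± 0.20 (SE; adjusted p = 9.1e-07), -1.57 ± 0.13 (4.4e-09) and -1.99 ± 0.12 (6.0e-13), and -3.32, -1.34 and -1.86 after the GC correction. With IFNγ alone GPAM was at 161, 166 and 133 CPM (log2 fold change -0.30, adjusted p = 0.067).

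GPD1 makes glycerol 3-phosphate, the backbone of triglyceride. Its level was 67.8, 63.7 and 67.5 CPM in DMSO and 8.44, 11.5 and 12.6 with ABBV-075 (log2 fold change -2.64 ± 0.17, adjusted p = 8.4e-07). Levels with ABBV-744 were 52.2, 53.1 and 58.1 CPM at 50 nM and 35.2, 44.2 and 33.9 at 500 nM. All 9 inhibitor libraries lay below DMSO. The higher dose of ABBV-744 passed the test (-0.81 ± 0.13, adjusted p = 3.9e-05), and the lower dose did so only after the GC correction (-0.27 ± 0.11, 0.094; corrected -0.46, 0.0022).

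AGPAT2, which adds the second fatty acid, was a low gene, at 7.24, 4.44 and 5.49 CPM in DMSO and 2.41, 0.861 and 1.504 with ABBV-075 (log2 fold change -1.79 ± 0.38). With 500 nM ABBV-744 its libraries spread from 0.582 to 4.601 CPM, and the difference from DMSO was -0.91 (adjusted p = 0.12). The related AGPAT1 and AGPAT3 fell by 0.55 ± 0.13 and 0.94 ± 0.14 on the log2 scale with ABBV-075 and were not called with ABBV-744, at 0.23 and -0.02 at 50 nM. Of the enzymes of the last step, DGAT2 fell by 0.40 ± 0.12 with ABBV-075 and DGAT1 was at -0.03.

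The acyl-CoA synthetases were split. ACSL5 was at 209, 214 and 196 CPM in DMSO, 36.9, 34.7 and 33.4 with ABBV-075, 139, 155 and 152 with 50 nM and 123, 117 and 139 with 500 nM ABBV-744. Every inhibitor library was below every DMSO library. It fell by 2.58 ± 0.12, 0.46 ± 0.10 and 0.70 ± 0.10 on the log2 scale (adjusted p = 1.3e-07, 0.0018 and 4.8e-06). ACSL4, which prefers arachidonic acid, and ACSL3, which acts at forming droplets, are among the 3 members of lowest GC content. They rose with ABBV-075 (0.56 ± 0.19 and 0.68 ± 0.20) and fell with 50 nM ABBV-744 (-0.73 ± 0.11 and -0.58 ± 0.13). In ABBV-075 replicate 3, ACSL4 was at 139.5 CPM, within the DMSO libraries (148, 151 and 138). After the GC correction the values of ACSL4 and ACSL3 with ABBV-075 were 0.07 (adjusted p = 0.56) and 0.24 (0.066). With 50 nM ABBV-744 they were -0.34 (0.0081) and -0.24 (0.096). The ABBV-075 call of ACSL3 was lost without DMSO replicate 1 or ABBV-075 replicate 2, and that of ACSL4 without any single DMSO library or ABBV-075 replicate 1 or 2. The 50 nM ABBV-744 call of ACSL3 was lost without DMSO replicate 2.

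PLIN2, the main perilipin of hepatocyte droplets, was at 279, 279 and 281 CPM in DMSO and 90.7, 98.5 and 103 with ABBV-075. The ABBV-744 libraries were at 171, 202 and 169.6 CPM at 50 nM and 150.04, 162 and 156 at 500 nM. No inhibitor library overlapped DMSO. PLIN2 fell by 1.54 ± 0.11, 0.61 ± 0.10 and 0.83 ± 0.09 on the log2 scale (adjusted p = 1.6e-06, 0.00013 and 6.3e-08). With IFNγ it rose to 379, 339 and 338 CPM (0.33 ± 0.07, adjusted p = 0.0032).

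CIDEB, a CIDE protein of liver that acts on droplets and lipoprotein particles, was at 58.2, 64.2 and 56.8 CPM in DMSO and 16.9, 17.5 and 24.1 with ABBV-075 (-1.64 ± 0.17, adjusted p = 2.7e-05). With ABBV-744 it was at 38.5, 47.8 and 45.7 CPM at 50 nM (-0.43 ± 0.13, 0.019) and 27.04, 49.02 and 38.8 at 500 nM (-0.64 ± 0.15, 0.0031). All of these libraries were below DMSO. The 50 nM ABBV-744 call was lost without DMSO replicate 2 or 3 or ABBV-744 50 nM replicate 1 (adjusted p of up to 0.13). CIDEC, its relative, was at -1.49 ± 0.37 (log2) with ABBV-075.

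PLIN5, a perilipin that links droplets to mitochondria, stood the other way. It was at 1.07, 0.888 and 0.954 CPM in DMSO, near the floor, and 6.51, 7.47 and 8.12 with ABBV-075, from 4, 4 and 4 counts against 27, 26 and 27 (log2 fold change 2.86 ± 0.34). It passed the filter on low counts through ABBV-075 alone, so this difference is a description. With ABBV-744 it was at 2.39, 2.199 and 2.54 CPM at 50 nM and 3.78, 1.92 and 4.31 at 500 nM. These 6 libraries lay above DMSO and below ABBV-075, but PLIN5 did not pass the filter against DMSO there. In edgeR without a filter it was at 1.27 ± 0.59, adjusted p = 0.14 at 50 nM and 1.77 ± 0.52, adjusted p = 0.011 at 500 nM. In the joint fit of 24 libraries it was at 1.27 ± 0.46, adjusted p = 0.061 and 1.77 ± 0.42, adjusted p = 0.0062.

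PNPLA2, the lipase that starts the breakdown of stored triglyceride, rose with both inhibitors. It was at 10.5, 7.104 and 12.6 CPM in DMSO and 30.4, 33.6 and 33.7 with ABBV-075. ABBV-744 gave 14.9, 20.4 and 21.6 CPM at 50 nM and 20.4, 24.4 and 20.99 at 500 nM. Every inhibitor library was above every DMSO library. The log2 fold changes were 1.67 ± 0.21 (adjusted p = 9.3e-05), 0.93 ± 0.22 (0.0047) and 1.13 ± 0.20 (0.00022), and the call at 50 nM ABBV-744 was lost without DMSO replicate 2 (adjusted p = 0.059). PNPLA3, a related droplet protein, fell with ABBV-075 (-1.19 ± 0.22, adjusted p = 0.0014) and was at 0.05 and -0.24 with the doses of ABBV-744.

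**Figure D2:**
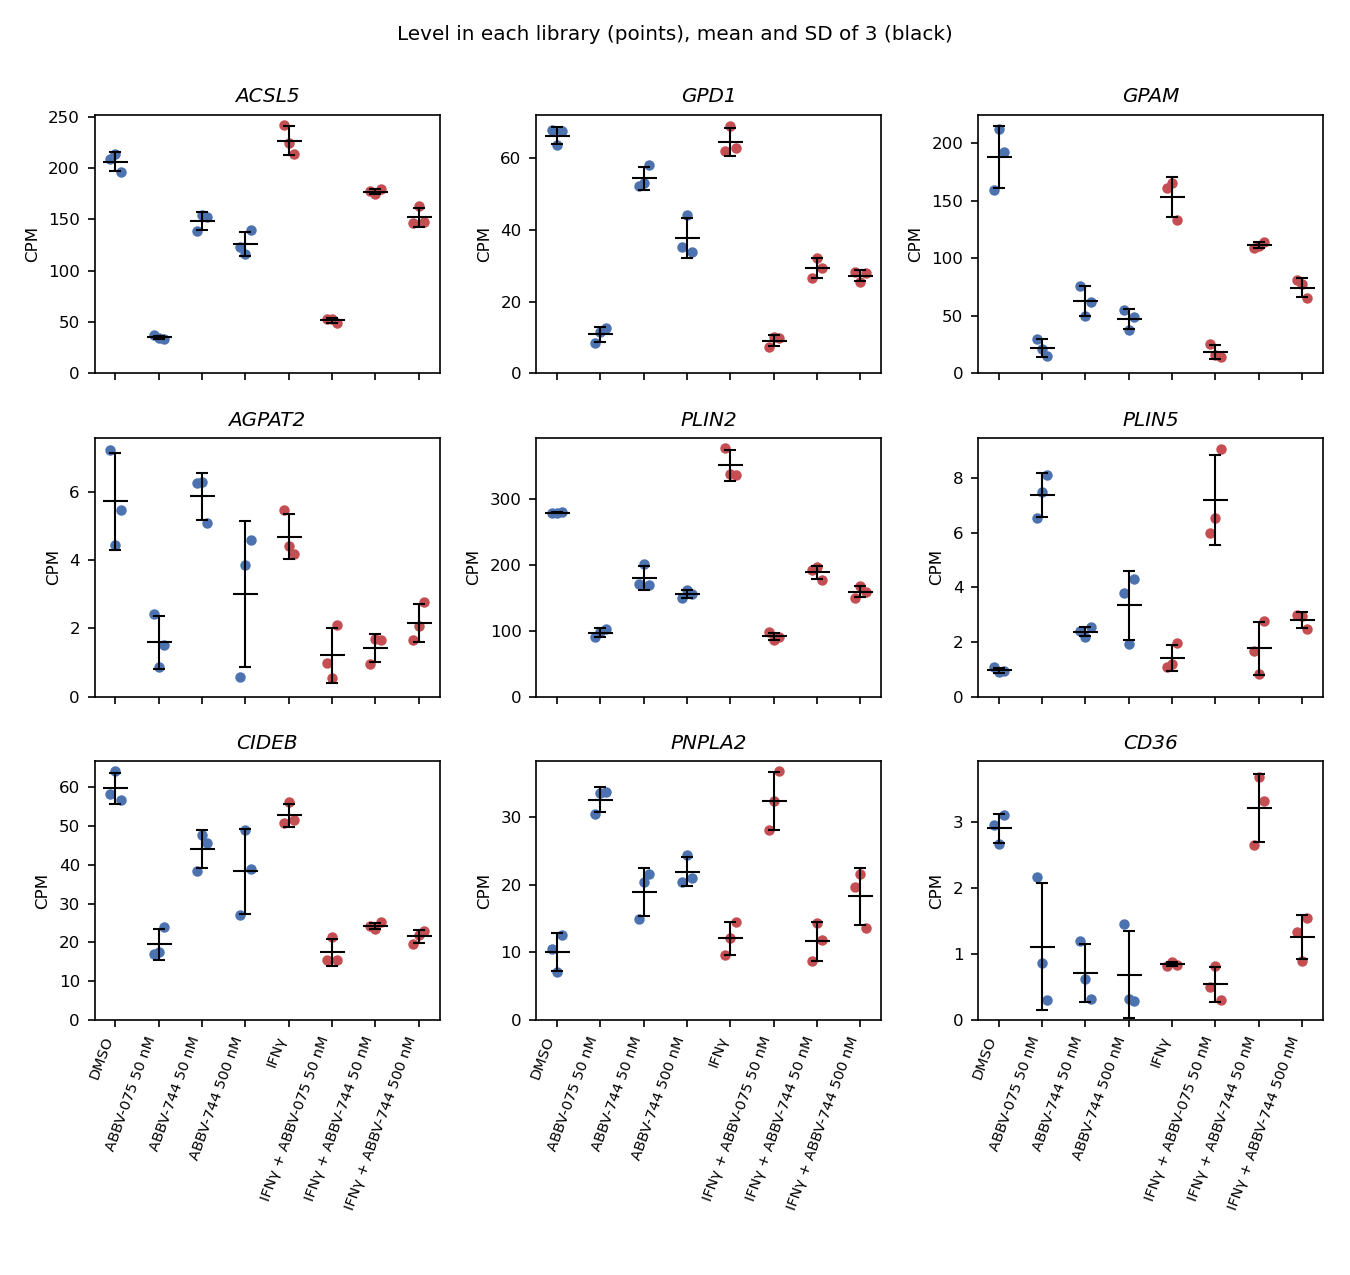
Level in CPM (linear axis from 0) of the 9 members past an absolute log2 fold change of 1.5 in at least 1 of 7 comparisons with a control, in the 8 groups. Coloured points are single libraries (blue without and red with IFNγ), and black lines and bars are the mean and SD of 3 libraries. GPAM lies between 159.5 and 212 CPM in DMSO and between 15.04 and 30.2 with ABBV-075.

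FABP1, the fatty acid binding protein of liver, fell with ABBV-075 (-1.10 ± 0.19, adjusted p = 0.00088) and was at -0.29 and -0.30 with ABBV-744. CD36, which moves fatty acids across the plasma membrane, was at 2.95, 2.66 and 3.1003 CPM in DMSO, 2.17, 0.861 and 0.301 with ABBV-075, 1.45, 0.3204 and 0.288 with 500 nM ABBV-744 and 0.818, 0.886 and 0.839 with IFNγ. It was called lower with 500 nM ABBV-744 (-1.9996 ± 0.54) and with IFNγ, in both cases a gene that passed the filter only through DMSO. Each IFNγ library held 3 counts, the floor, and the depth-scaled ratio of 36 counts in DMSO to 9 in IFNγ was 3.58 (exact 95% interval 1.69 to 8.46, counting error only). Counts were pooled over the libraries of each group, so the interval leaves out the spread between them. For a gene kept through DMSO alone, the ratio is a description. The IFNγ call was lost when any single library was left out, and the 500 nM ABBV-744 call without ABBV-744 500 nM replicate 3. With ABBV-075 CD36 was at -1.30 (adjusted p = 0.051; corrected for GC content -1.84, 0.0025).

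FASN, the fatty acid synthase, was at 260.3, 234 and 233 CPM in DMSO and 297, 362 and 433 with ABBV-075. ABBV-744 libraries stood at 365, 387 and 319.8 CPM at 50 nM and 337, 396 and 349.99 at 500 nM, and with IFNγ at 266, 309.96 and 377. Each of these treated libraries was above every DMSO library. The log2 fold changes were 0.56 ± 0.14, 0.57 ± 0.10, 0.58 ± 0.09 and 0.39 ± 0.09, and the IFNγ call was lost without DMSO replicate 3 or IFNγ replicate 3. The enzymes before FASN were not called with ABBV-075, with ACLY at -0.02, ACACA at -0.25 and ACACB at -0.27, nor was SCD (-0.26). The elongase ELOVL2, which extends polyunsaturated fatty acids, fell with ABBV-075 (-0.96 ± 0.11) and with 50 and 500 nM ABBV-744 (-0.74 ± 0.10 and -0.55 ± 0.10). In β-oxidation, the trifunctional protein subunit HADHB fell with ABBV-075 (-0.56 ± 0.14), its partner HADHA was at -0.10, and CPT2 rose (0.44 ± 0.16, adjusted p = 0.047; corrected 0.08, 0.76), a call lost without any 1 library other than ABBV-075 replicate 1.

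The inhibitors were compared directly at 50 nM, without and with IFNγ, in 2 pairs of groups with p-values adjusted over all genes. The dose was matched, but whether the treatment times were is not given in the sources used here. PLIN5 passed the filter only through ABBV-075 without IFNγ, AGPAT2 and CD36 only through ABBV-744 (AGPAT2 without and CD36 with IFNγ), and their differences here are a description. Leaving these members out, 18 of 34 differed without IFNγ and 19 of 35 with it. Without IFNγ, 20 of 36 members tested differed (55.6%, against 40.8% of all genes tested), 6 higher (21.4% of all genes) and 14 lower (19.4%), where higher means higher with ABBV-075. Lower were GPD1 (log2 difference and 95% interval -2.35, -2.75 to -1.94), ACSL5 (-2.09, -2.38 to -1.80), AGPAT2 (-1.83, -2.66 to -1.01) and GPAM (-1.49, -2.03 to -0.96). Higher were PLIN5 (1.60, 0.97 to 2.24) and PNPLA2 (0.77, 0.36 to 1.17). Before the GC correction, no difference was detected for FASN (0.01, -0.31 to 0.33) or ELOVL2 (-0.19, -0.47 to 0.10), and these intervals still allow small differences. ACSL3 and ACSL4 were 1.28 and 1.31 higher, and 0.49 and 0.43 after the GC correction. With that correction 26 of 36 members differed (3772 of 10992 genes tested), 9 higher and 17 lower. In fatty acid synthesis it moved the calls from 0 higher and 1 lower to 1 and 0. In elongation and desaturation it moved them from 0 higher and 1 lower to 1 and 3.

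With IFNγ in both groups, 20 of 36 members tested differed (55.6%, against 33.7% of all genes tested), 8 higher (16.7% of all genes) and 12 lower (17%). Lower with ABBV-075 were GPAM (-2.52, -2.79 to -2.25), CD36 (-2.43, -3.54 to -1.33), ACSL5 (-1.73, -1.93 to -1.53), GPD1 (-1.63, -2.01 to -1.26) and PLIN2 (-0.995, -1.18 to -0.81). Higher were PLIN5 (2.03, 1.29 to 2.77), PNPLA2 (1.53, 1.17 to 1.89) and FASN (0.76, 0.57 to 0.95). Before the GC correction, no difference was detected for SCD (0.01, -0.15 to 0.16) or DGAT2 (0.01, -0.19 to 0.21). With that correction 23 of 36 members differed (3857 of 11126 genes tested), 10 higher and 13 lower. AGPAT2 did not pass the filter on low counts, at 0.994, 0.544 and 2.11 CPM with ABBV-075 and 0.964, 1.695 and 1.66 with ABBV-744.

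**Figure D3:**
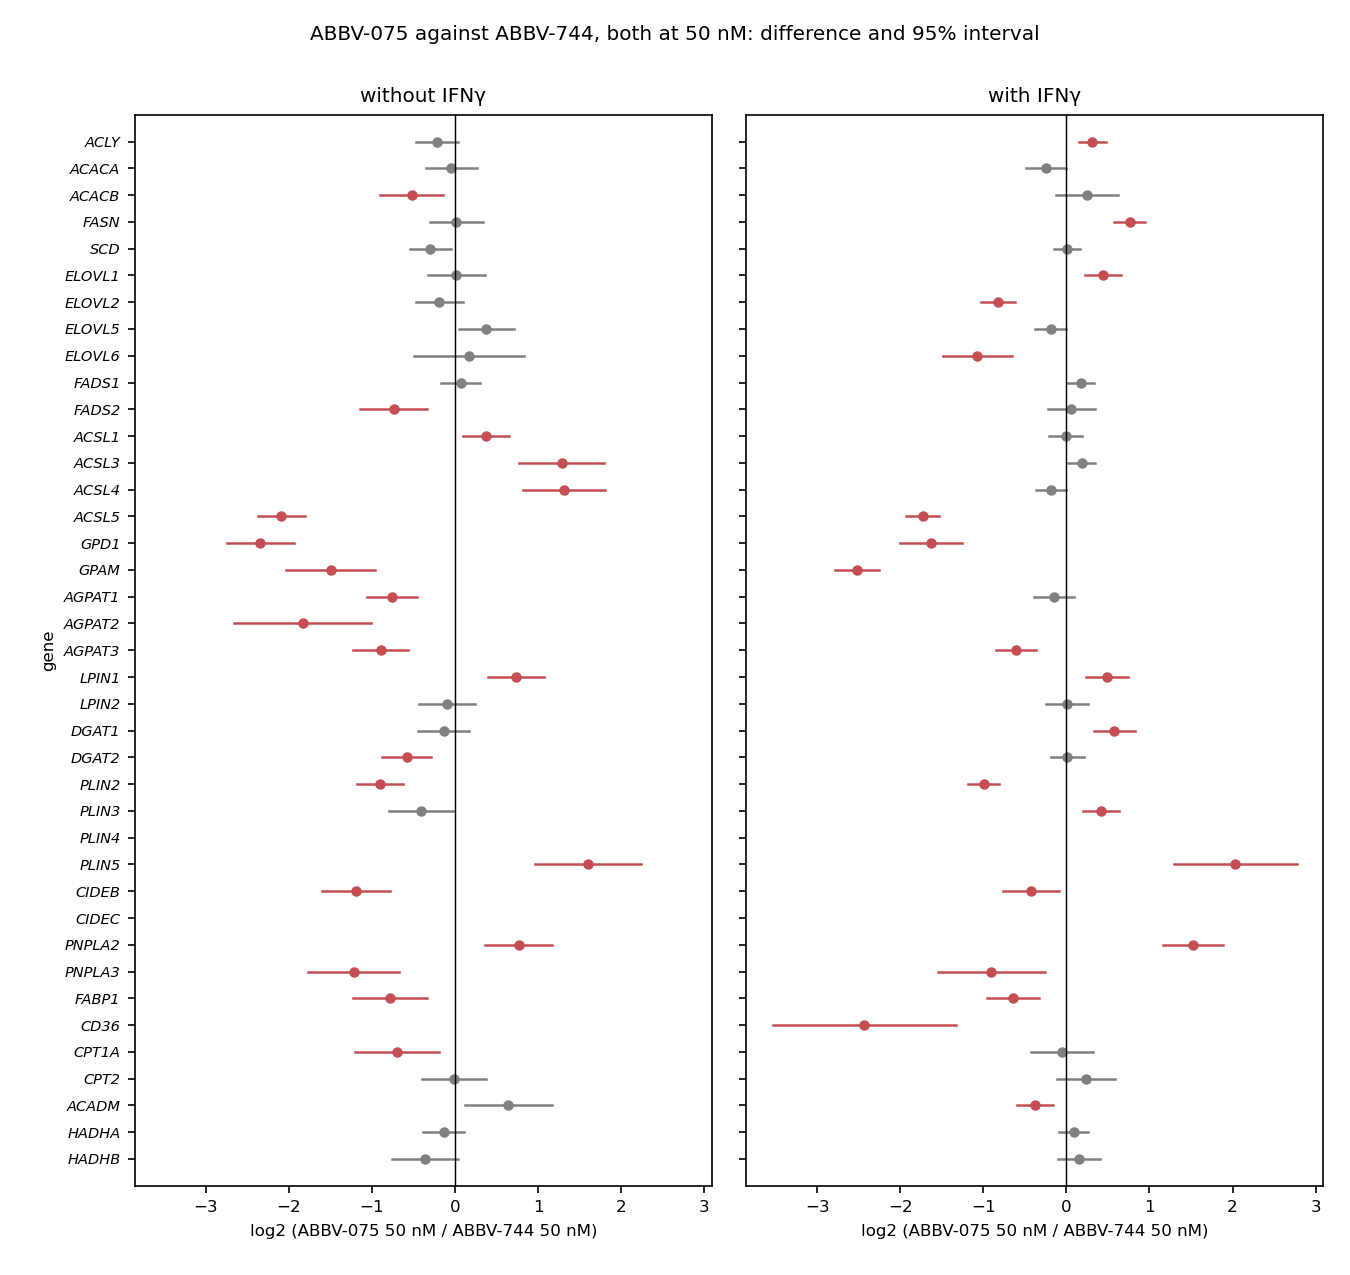
Log2 difference between ABBV-075 and ABBV-744, both at 50 nM, for each member tested, without IFNγ (left) and with IFNγ in both groups (right), 3 libraries a group. Points are edgeR estimates, bars are 95% intervals and red marks an adjusted p of no more than 0.05. GPAM, GPD1 and ACSL5 lie left of 0 and PLIN5 and PNPLA2 right of 0 in both panels.

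Each inhibitor was also added to IFNγ and compared with IFNγ alone, so these comparisons share the IFNγ libraries. With ABBV-075, 27 of 36 members tested changed (75%, against 56.6% of all genes tested), 6 higher (28.2% of all genes) and 21 lower (28.4%), and the median was -0.46 over the members and 0.00 over all genes tested. Past the threshold of 1.5 were 1 higher member (2.41% of all genes) and 6 lower ones (3.75%). The higher one was PLIN5 and the lower ones included AGPAT2, and both passed the filter through 1 group. Without PLIN5 and AGPAT2 25 of 34 members tested changed. GPAM was at 25.4, 16.3 and 13.9 CPM (-3.03 ± 0.15), GPD1 at 7.46, 10.1 and 9.94 against 61.9, 69.1 and 62.9 with IFNγ (-2.83 ± 0.16), and PLIN2 at 97.95, 86.8 and 90.7 (-1.94 ± 0.10). The libraries of these genes did not overlap between the groups. PLIN5 was at 2.30 ± 0.38 (log2), having passed the filter only through the inhibitor group, as AGPAT2 did only through IFNγ (-1.97 ± 0.43). PNPLA2 rose from 9.55, 12.1 and 14.5 to 28.1, 32.4 and 36.8 CPM (1.41 ± 0.18). The interaction, the effect of ABBV-075 with IFNγ minus that without, was called for 0 of 39 members in edgeR (0.0347% of all genes), with 3 at an unadjusted p under 0.05 and 0 called in DESeq2. It was 0.03 for GPAM (95% interval -0.58 to 0.64).

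With ABBV-744 at 50 nM and IFNγ, 28 of 36 members tested changed (77.8%, against 51.7% of all genes tested), 5 higher (27.4% of all genes) and 23 lower (24.3%), and the median was -0.34 over the members and -0.02 over all genes tested. At 500 nM, 26 of 35 members tested changed (74.3%, against 45.7% of all genes tested), 4 higher (22.9% of all genes) and 22 lower (22.8%), and the median was -0.37 over the members and -0.03 over all genes tested. After the GC correction 16 changed at 50 nM, 1 higher and 15 lower (34.5% of all genes), and 16 at 500 nM, 3 higher and 13 lower (36.8%). Before the correction 9 of 9 members of glycerolipid assembly were called lower at 50 nM and 9 of 9 at 500 nM, and after it 5 and 5 were. Both counts of 9 include AGPAT2, which passed the filter only through IFNγ alone. Without AGPAT2 and before the correction, 27 of 35 members tested changed at 50 nM and 25 of 34 at 500 nM. The interaction of ABBV-744 with IFNγ was called for 28 of 38 members at 50 nM (51.6% of all genes) and 18 of 38 at 500 nM (33.5%), and after the GC correction for 13 (20.4%) and 9 (16.8%).

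GPD1 was at 26.5, 32.2 and 29.3 CPM with IFNγ and 50 nM and 28.3, 25.5 and 27.99 with 500 nM ABBV-744 (-1.12 ± 0.12 and -1.26 ± 0.13; corrected -0.79 and -0.97). PLIN2 was at 192, 198 and 178 and 151, 168 and 159 CPM (-0.87 ± 0.08 and -1.16 ± 0.09; corrected -0.78 and -0.99). CIDEB was at 24.1, 23.5 and 25.1 and 19.6, 21.9 and 23.1 CPM against 50.7, 56.1 and 51.5 with IFNγ (-1.10 ± 0.13 and -1.30 ± 0.14; corrected -0.77 and -1.05). None of these libraries overlapped IFNγ alone, and the corrected values of GPD1, PLIN2 and CIDEB passed the test. GPAM was at 109, 111 and 114 and 80.9, 77.4 and 65.5 CPM (-0.44 ± 0.09 and -1.06 ± 0.11; corrected -0.90 and -1.38), also below IFNγ alone. ACSL5 fell by 0.34 ± 0.08 and 0.59 ± 0.09 on the log2 scale.

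AGPAT2 was at -1.69 ± 0.40 and -1.11 ± 0.38 (log2) with IFNγ and 50 and 500 nM ABBV-744 (corrected -1.40 and -0.99), and passed the filter there only through IFNγ alone. PNPLA2 was at 8.68, 14.4 and 11.9 CPM at 50 nM (-0.04, adjusted p = 0.89) and 19.6, 21.7 and 13.5 at 500 nM (0.58 ± 0.21, adjusted p = 0.024). The 500 nM calls of AGPAT2 and PNPLA2 were both lost without IFNγ replicate 1 or without replicate 1 or 2 of the combination. ACADM, the medium-chain dehydrogenase of β-oxidation, rose from 31.6, 29.8 and 19.6 CPM to 75.7, 79.1 and 68.2 at 50 nM and 70.3, 56.95 and 56.3 at 500 nM (1.48 ± 0.14 and 1.16 ± 0.15; corrected 1.36 and 1.14). The groups of ACADM did not overlap, and it also rose with IFNγ and ABBV-075, to 58.2, 55.5 and 52.1 CPM (1.03 ± 0.15).

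Other calls with IFNγ and 50 nM ABBV-744 turned direction with the GC correction. ACSL3 went from 0.75 ± 0.08 to -0.08 (adjusted p = 0.36), ELOVL5 from 0.24 ± 0.10 to -0.15 (0.17) and FASN from -0.24 ± 0.09 to 0.06 (0.49). ACSL4 kept its direction, from 1.09 ± 0.09 to 0.15 (0.15).

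**Figure D4:**
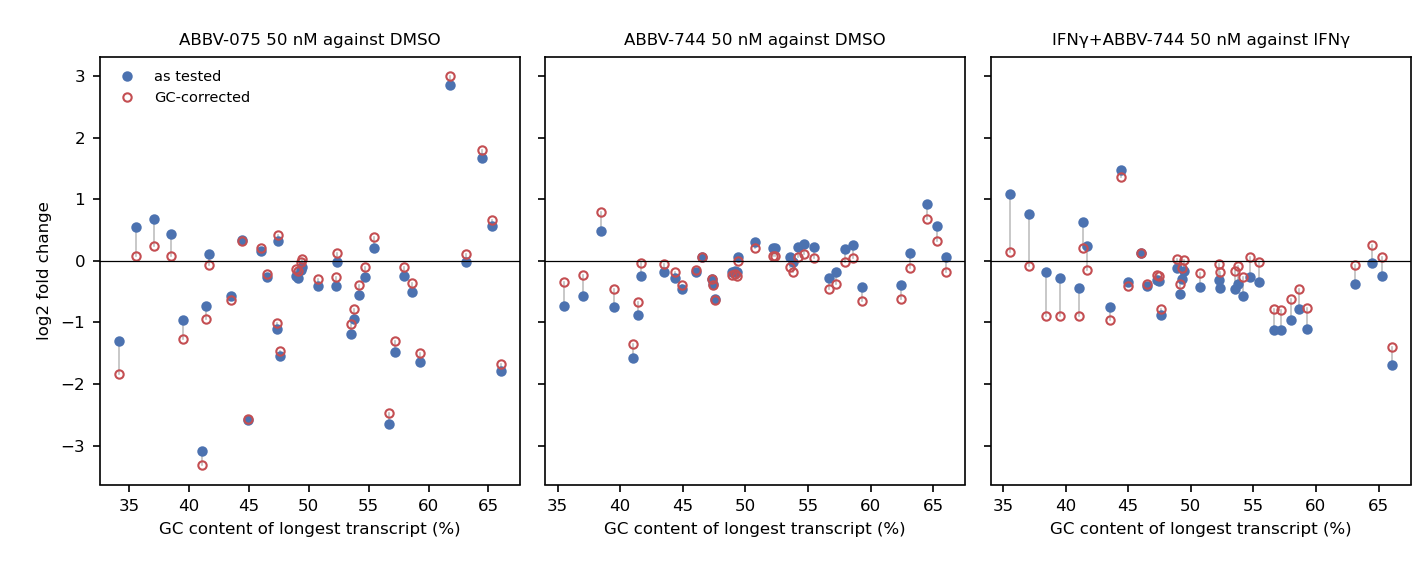
Log2 fold change of each tested member against the GC content (%) of its longest transcript in 3 comparisons, as tested (filled blue) and after the GC correction (open red), joined by grey lines. ACSL3 and ACSL4 stand at 0.75 and 1.09 with IFNγ and 50 nM ABBV-744 before the correction and at -0.08 and 0.15 after it.

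A further 68 genes of these pathways were listed beside the members, and 50 of them were tested with ABBV-075. Of these 23 changed (46%, against 39.3% of all genes tested), 10 higher and 13 lower (19.8% and 19.6% of all genes), with a median of -0.07. With 50 nM ABBV-744 8 of 49 were higher and 5 lower (26.5% together, against 18.9% of all genes), and with 500 nM 6 and 6 (24.5%, against 15.3%). The genes past the threshold of 1.5 in at least 1 comparison with a control were MOGAT2, FITM1 and ETFDH. MOGAT2, which makes diglyceride from monoglyceride, went from 7.77, 12.4 and 11.4 to 3.86, 1.44 and 3.01 CPM with ABBV-075 (-1.93 ± 0.33). FITM1, which partitions triglyceride into droplets, went from 3.75, 4.22 and 5.25 to 1.45, 0.574 and 0.902 CPM (-2.13 ± 0.40). ETFDH, which passes electrons from β-oxidation to the respiratory chain, went from 1.88, 1.998 and 2.15 to 7.24, 7.75 and 6.31 CPM (1.78 ± 0.29). With ABBV-075 FITM1 passed the filter only through DMSO and ETFDH only through ABBV-075, and their differences are a description. Without FITM1 and ETFDH 21 of 48 changed with ABBV-075. FITM1, called lower with 500 nM ABBV-744, also passed the filter there only through DMSO, and without it 11 of 48 changed. With IFNγ alone 1 of 49 was called (2.04%, against 3.46% of all genes), MTTP, which loads lipid onto lipoproteins (0.33 ± 0.08).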

How the data were processed

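RNA of 24 HepG2 libraries was sequenced. Per the labels, the submitters' processing notes name CASAVA 1.8.2, Trimmomatic 0.33, STAR 2.7.1 and hg38, and the authors deposited raw counts per gene symbol and strand. The study's methods, which cover the DMSO and ABBV-075 libraries, give ribosomal RNA depletion and a directional kit. The annotation behind the counts is not given in the sources used here. The gene's own strand (column 4) was analysed and held 98.3% to 98.5% of reads on genes.

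Members and gene lists were chosen with earlier results of these data known. Counts were filtered (filterByExpr), scaled (TMM) and tested with edgeR 4.0.16 in R 4.3.3 using the compared groups alone. Standard errors are the log2 fold change over the square root of F. Values in every library are given for members past the study's thresholds (absolute log2 fold change 1.5, adjusted p 0.05) in at least 1 of 7 comparisons with a control, and other pathway genes were named by the same thresholds. Library values of FASN, ACADM and ACSL4, and the name MTTP, were chosen after values were seen. GC content and lengths came from GENCODE v44 and promoters from RefSeq.

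Alternatives were DESeq2 1.42.0, RLE, library size only, no filter, a minimum of 10 counts per library, a joint fit of 24 libraries, both strands, the replicate block, a GC correction (lowess, span 0.3) without and with the block, and leaving out each library. Fits were tested on simulated data.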

Additional observations from a re-analysis of the deposited data

Results flagged for a closer look

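The effect of ABBV-744 differed with and without IFNγ by a test of the interaction in edgeR. At 50 nM 28 of 38 members differed (51.6% of all genes), and 13 after the GC correction (20.4%). At 500 nM 18 of 38 differed (33.5%), and 9 after the correction (16.8%). The log2 difference at 50 nM (effect with IFNγ minus effect without) was 1.72 for ACADM (corrected 1.55, adjusted p = 1.4e-07), 1.10 for GPAM (corrected 0.45, adjusted p = 0.0089), 1.78 for ACSL4 (corrected 0.49, adjusted p = 0.0024) and 3.81 for CD36 (corrected 2.42, adjusted p = 0.015). It was -1.0 for PNPLA2 (corrected -0.42, adjusted p = 0.36), -0.88 for GPD1 (corrected -0.33, adjusted p = 0.12), -0.70 for CIDEB (corrected -0.12, adjusted p = 0.68), -0.29 for PLIN2 (corrected -0.14, adjusted p = 0.39) and -1.78 for AGPAT2 (corrected -1.22, adjusted p = 0.073), and these 5 calls were lost with the correction. CD36 was at 2.65, 3.67 and 3.32 CPM with IFNγ and 50 nM ABBV-744 and at 2.95, 2.66 and 3.10 in DMSO. It was at 1.19, 0.628 and 0.318 CPM with 50 nM ABBV-744 (4, 2 and 1 counts). With IFNγ it was at 0.818, 0.886 and 0.839 CPM, with 3 counts in each library, the floor. CD36 passed the filter on low counts here only through DMSO and the combination, so its difference is a description. At 500 nM the difference was 0.95 for GPAM (corrected 0.48, adjusted p = 0.0083), -0.64 for CIDEB (corrected -0.26, adjusted p = 0.37) and -0.30 for PLIN2 (corrected -0.13, adjusted p = 0.41).

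On the strand opposite to CIDEB, which the member counts leave out, 242 to 394 reads per library were counted. They were 0.34 higher (log2) with 50 nM ABBV-744 than in DMSO (edgeR, adjusted p = 0.035). They were -0.31 (log2) with IFNγ and 50 nM ABBV-744 against IFNγ (adjusted p = 0.033). Their source was not tested.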

How the results depend on the processing

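Of 130 values called over the 7 comparisons with a control, 107 of 129 kept their direction and call with DESeq2, 127 with RLE scaling, 121 with library size only, 124 without a filter, 119 with a joint fit of 24 libraries, 122 of 124 with both strands and 94 with the GC correction. With a minimum of 10 counts 117 of 119 did, and 95 in all fits without 1 library. The correction turned ACLY with IFNγ and ABBV-075 to 0.0666 (0.0673 with the replicate block added), and with IFNγ and 50 nM ABBV-744 it turned FASN to 0.0648 (0.0685), ACSL3 to -0.0797 (-0.0801) and ELOVL5 to -0.145 (-0.142). Without and with the block, the corrected counts were 16 and 15 for IFNγ with 50 nM ABBV-744 (28 uncorrected), 16 and 16 for 500 nM (26), 13 and 11 for the interaction of 50 nM ABBV-744 with IFNγ (28), and 9 and 9 for that of 500 nM (18). The cause was not tested. Same-numbered replicates had correlations of deviations from -0.18 to 0.34 and were not taken as pairs, and the replicate block kept 126 calls. Between the doses of ABBV-744 the block called 2 members and 3 with the GC correction, against 0, and 320 of all genes against 3. For IFNγ against DMSO 1 member was called in the joint fit, and 1 to 3 when single libraries were left out (1 without DMSO replicate 3 or IFNγ replicate 3). Leaving out single libraries gave 0 to 1 for the interaction of ABBV-075 with IFNγ (1 without ABBV-075 replicate 1). With library size only the median of all genes moved to -0.10 for 50 nM ABBV-744 against DMSO, with 2 members higher and 12 lower, and to 0.04 for its interaction with IFNγ, with 10 higher and 11 lower. The interaction of 500 nM ABBV-744 then had 5 higher and 8 lower. With the GC correction IFNγ alone had 3 higher and 0 lower. CD36, PLIN5 and AGPAT2, with 30 counts or fewer in a library, are measured least precisely.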
